A study of Homo sapiens with 12 samples.

Results

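The expression of 10 genes was followed, 9 encoding core proteins of proteoglycans (*VCAN*, *ACAN*, *BGN*, *DCN*, *LUM*, *HSPG2*, *GPC1*, *SDC2* and *SDC4*) and 1 encoding a hyaluronan synthase (*HAS2*). The genes were taken by symbol from a named list, and all 10 were found among the 25702 genes of the deposited count table. Of the 10, 8 were among the 9490 genes tested, which reached at least 10 cpm (counts scaled to the size of their library) in at least 6 libraries. *HAS2* and *ACAN* did not, were identified through RefSeq gene identifiers, and are described from counts and, for *HAS2*, from a fit without the gene filter.

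RNA was sequenced from WI-38 cells, a line of normal human lung fibroblasts, in 4 conditions with 3 flasks each. D1 and D20 were cultured without TGF-β for 1 and 20 days, and D1+ TGF-β and D20+ TGF-β were cultured for the same times with TGF-β at 2 ng/mL. The D1 flasks were at passages 2 to 3 and were treated at confluence. The D20 flasks were at passages 5 to 6, were seeded to be nearly confluent at the end, and those of each treatment came from 1 treated or 1 untreated flask, so that day, passage and seeding cannot be told apart. Treatment and founding flask also cannot be told apart at D20, in D20+ TGF-β vs D20 and in any result that uses it. Flasks of 1 treatment at D20 are sister flasks, so their spread holds no difference between founding flasks. In each condition 3 of 5 flasks had been chosen for the amount and quality of their RNA, and p-values measure the spread between such flasks of 1 cell line.

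A proteoglycan is a core protein that carries glycosaminoglycans, long sulfated sugar chains which hold water and bind growth factors. Versican, aggrecan, biglycan and decorin carry chondroitin or dermatan sulfate in the matrix, lumican is a small leucine-rich relative of biglycan and decorin that carries keratan sulfate or short unsulfated chains, and perlecan, glypican-1 and the syndecans carry mostly heparan sulfate. Hyaluronan has no core protein, is extruded by synthases at the cell membrane and is bound by versican and aggrecan. In lung, these molecules make up much of the matrix between fibroblasts, and decorin and biglycan are known to bind TGF-β.

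Library totals ranged from 8674488 to 18286197 counts after the 4 lanes of a library were summed. Between flasks of 1 condition the root mean square log2 difference over genes tested was 0.12 to 0.16 in D1+ TGF-β and 0.12 to 0.15 in D20, 0.22 between D1 replicates 1 and 3 and 0.14 between D20+ TGF-β replicates 1 and 2. It was larger between D1 replicate 2 and the others of its group, 0.33 and 0.34, and between D20+ TGF-β replicate 3 and the others of its group, 0.29 and 0.30. For several genes that rest on these libraries, values without them or ranges over the alternatives are therefore given as well. All 8 fibroblast markers examined (such as *COL1A1*, *PDGFRA* and *VIM*) were tested in every library, while *CDH5*, *LYZ*, *CD3E*, *MS4A1* and *KRT5*, markers of endothelial, blood and epithelial cells, had 0 counts in all 12 libraries. Of the endothelial, leukocyte and epithelial lists (17 genes), *TEK*, *CD68*, *KRT8*, *KRT18* and *KRT19* passed the filter. *TEK*, an endothelial receptor gene, had group means of 56.4 and 36.3 cpm without and with TGF-β at day 1 and of 234 and 119 cpm at day 20, while *PECAM1* had at most 0.302 cpm in any library. The summed cpm of 6 genes of dividing cells was 651 to 1034 at D1, 719 to 806 at D1+ TGF-β, 108 to 134 at D20 and 243 to 410 at D20+ TGF-β, and its part in the results below was not tested.

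To detect early changes, D1+ TGF-β was compared with D1. *VCAN*, *BGN* and *HAS2* were higher and *GPC1* was lower with TGF-β, while *DCN*, *LUM*, *HSPG2*, *SDC2* and *SDC4* did not pass the test. Of the 8 genes tested, 3 were called at an adjusted p under 0.01, 2 of them higher and 1 lower, against a background of 13.4% of all genes tested (6.89% higher and 6.50% lower, 654 and 617 genes). Without a composition factor for the library sizes these were 500 and 938 genes, and the members called were the same in number. The tests are edgeR's quasi-likelihood tests with Benjamini-Hochberg adjustment over all genes tested, and cpm are on the scale of edgeR's TMM factors. In such bulk RNA, fewer cells of a type and less RNA per cell cannot be told apart.

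To detect changes under long treatment, D20+ TGF-β was compared with D20. Here 6 of the 8 genes were called, *VCAN* and *BGN* higher and *DCN*, *GPC1*, *SDC2* and *SDC4* lower, against 27.5% of all genes tested (12.8% higher and 14.7% lower). *HAS2*, outside the 8, was higher as well, and *LUM* and *HSPG2* did not pass the test. All 6 genes of dividing cells were called higher in this comparison and 0 of 6 in D1+ TGF-β vs D1, and the part of this difference in the results was not tested. The study defined myofibroblasts by α-smooth muscle actin protein, in blots and in stained cells. The paper reports more of this protein with TGF-β at D20, and no stained cells after the short treatment. The RNA of its gene, *ACTA2*, was 180.1 ± 52.1 cpm in D1 against 756 ± 78.0 cpm with TGF-β (SD, n = 3). At D20 the RNA was 282 ± 9.97 cpm without and 309 ± 37.0 cpm with TGF-β. These data hold no protein levels, so whether the D20 cells were myofibroblasts by that definition was not tested. Of 6 contractile genes that include *ACTA2*, 4 were called higher in D1+ TGF-β vs D1, and 0 higher and 3 lower in D20+ TGF-β vs D20.

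**Figure D1:**
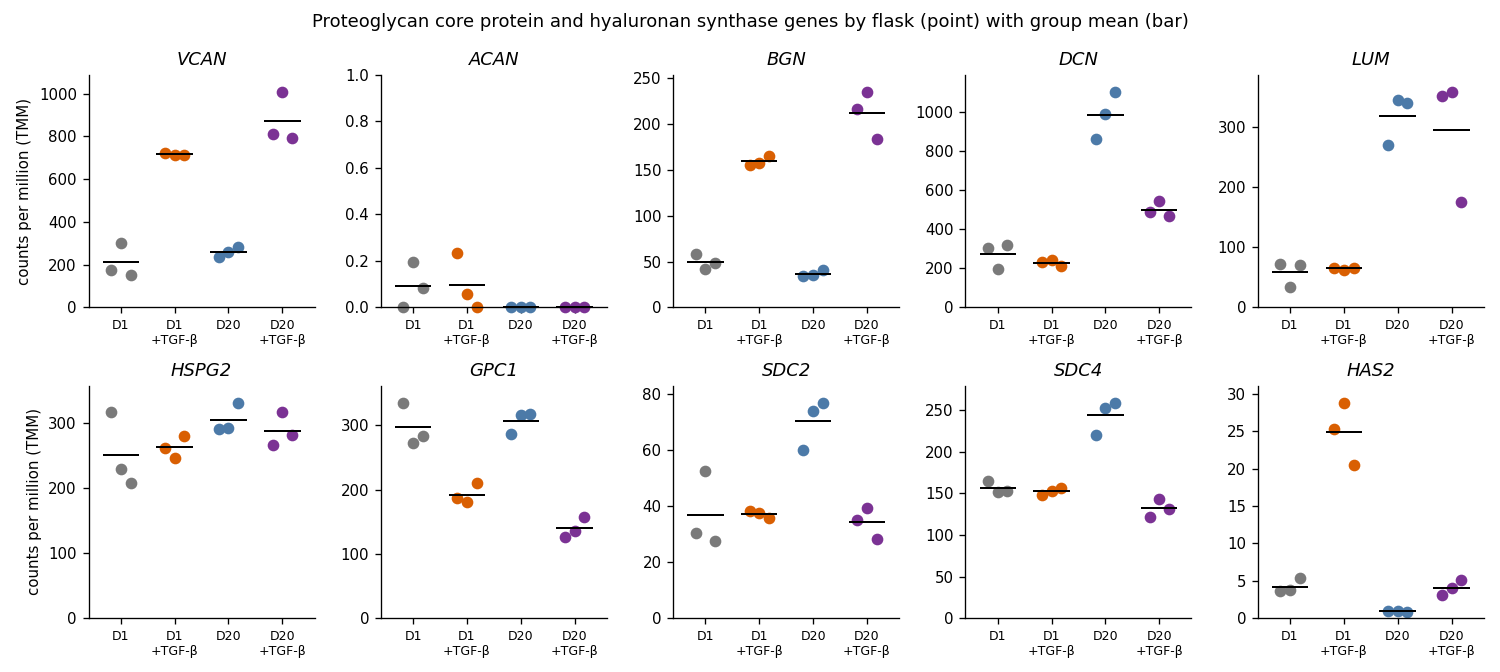
Expression of the 10 genes in cpm by condition, with a point for each of the 3 flasks and a bar for their mean. The axes start at 0 and differ between genes; *VCAN* and *BGN* sit higher in both conditions with TGF-β, and *ACAN* stays below 1 cpm.

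*VCAN* (gene ID 1462, chr5:82767437-82878122, plus strand, GRCh37) encodes versican, the large chondroitin sulfate proteoglycan of loose connective tissue. In flasks 1, 2 and 3 it was 177, 302 and 154 cpm at D1 and 723, 715 and 711 cpm at D1+ TGF-β. It was 236, 259 and 281 cpm at D20 and 809, 1008 and 793 cpm at D20+ TGF-β. Every treated flask was above every untreated flask of the same day, and D1 replicate 2 was the highest untreated flask. The log2 fold changes were 1.76 ± 0.19 at D1 (SE, adjusted p = 2.76e-05) and 1.75 ± 0.19 at D20 (adjusted p = 1.17e-05), mean ratios of 3.39 and 3.36. Their difference was -0.01 ± 0.27 (adjusted p = 0.983, 95% interval -0.58 to 0.56). Over the alternatives, which include leaving out each library, the log2 fold change at D1 ranged from 1.58 to 2.12. The difference ranged from -0.35 to 0.17 and was called under none of them (lowest adjusted p = 0.0720). An antisense gene, *VCAN-AS1*, lies on the opposite strand, and whether the counting used strand is not given in the sources used here.

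*ACAN* (gene ID 176, chr15:89346667-89418584, plus strand, GRCh37) encodes aggrecan, the large chondroitin sulfate proteoglycan of cartilage. It had 0, 3 and 1 counts in the D1 flasks, 2, 1 and 0 counts in the D1+ TGF-β flasks and 0 counts in all 6 flasks of day 20. In the flasks with 0 counts, 3 counts, taken as an approximate upper limit for a count of 0, correspond to 0.168 to 0.350 cpm per library. No fold is therefore given, and these limits cover counting error only.

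*BGN* (gene ID 633, chrX:152760438-152775004, plus strand, GRCh37) encodes biglycan, a small leucine-rich proteoglycan that carries chondroitin or dermatan sulfate. It was 58.6, 41.9 and 48.7 cpm in the D1 flasks and 155, 158 and 166 cpm in the D1+ TGF-β flasks. At day 20 it was 34.6, 34.9 and 40.5 cpm without TGF-β and 217, 235 and 184 cpm with it. The groups did not overlap on either day, and the treated flasks of day 20 were all above those of day 1. The log2 fold change was 1.68 ± 0.12 at D1 (adjusted p = 4.69e-07) and 2.53 ± 0.12 at D20 (adjusted p = 7.40e-09), mean ratios of 3.21 and 5.77. The response was larger at D20 by 0.84 ± 0.17 on the log2 scale (adjusted p = 0.00311). That call was lost without D1+ TGF-β replicate 1 (0.82, adjusted p = 0.0108), D1+ TGF-β replicate 2 (0.83, adjusted p = 0.0111), D20 replicate 1 (0.81, adjusted p = 0.0107) or D20 replicate 2 (0.81, adjusted p = 0.0119). *HAUS7*, a gene on the opposite strand, overlaps the *BGN* locus and was 3.62 to 11.2 cpm over the 12 flasks.

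*DCN* (gene ID 1634, chr12:91534261-91576994, minus strand, GRCh37) encodes decorin, a small leucine-rich proteoglycan that binds collagen fibrils. The D1 flasks had 301, 195 and 319.7 cpm and the D1+ TGF-β flasks 232, 242 and 211 cpm, and the groups overlapped because D1 replicate 2 was the lowest of the 6 flasks. The D20 flasks had 862, 986 and 1101 cpm and the treated flasks 488, 543 and 467 cpm, without overlap. The log2 fold change with TGF-β was -0.25 ± 0.15 at D1 (adjusted p = 0.243, 95% interval -0.58 to 0.07) and -0.98 ± 0.15 at D20 (adjusted p = 1.93e-04, mean ratio 0.508). Without D1 replicate 2 the value at D1 was -0.44 and was called (adjusted p = 0.00465), and it was -0.43 (adjusted p = 6.51e-04) when D20+ TGF-β replicate 3 was left out as well. The difference of the responses, -0.72 ± 0.21, did not pass the threshold (adjusted p = 0.0276), but did without D1 replicate 2 (-0.52, adjusted p = 0.00955).

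*LUM* (gene ID 4060, chr12:91496406-91505271, minus strand, GRCh37) encodes lumican, a small leucine-rich proteoglycan of collagen matrices, and its locus lies beside that of *DCN*. It was 72.6, 33.4 and 71.1 cpm at D1 and 65.9, 62.3 and 65.7 cpm at D1+ TGF-β. At D20 it was 269.6, 344 and 340 cpm and at D20+ TGF-β 352, 358 and 176 cpm. The groups overlapped on both days, and the lowest flask of its group was D1 replicate 2 in one case and D20+ TGF-β replicate 3 in the other. The log2 fold change with TGF-β was 0.14 ± 0.28 at D1 (adjusted p = 0.765, 95% interval -0.47 to 0.74) and -0.11 ± 0.26 at D20 (adjusted p = 0.772, 95% interval -0.67 to 0.46). Without D1 replicate 2 the first was -0.15 (adjusted p = 0.655), and without D20+ TGF-β replicate 3 the second was 0.16 (adjusted p = 0.602), so each sign rested on 1 flask.

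*HSPG2* (gene ID 3339, chr1:22148737-22263803, minus strand, GRCh37) encodes perlecan, a heparan sulfate proteoglycan of basement membranes. In the flasks of day 1 it was 318, 229.9 and 208 cpm without TGF-β and 262, 246 and 281 cpm with it. In those of day 20 the values were 291, 293 and 332 cpm and 266, 318 and 282 cpm. Treated and untreated flasks overlapped on both days. The log2 fold changes with TGF-β were 0.06 ± 0.13 at D1 (95% interval -0.22 to 0.34) and -0.08 ± 0.13 at D20 (95% interval -0.36 to 0.20), with adjusted p of 0.776 and 0.654. *LDLRAD2*, on the opposite strand within this locus, had at most 0.582 cpm.

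*GPC1* (gene ID 2817, chr2:241375080-241407493, plus strand, GRCh37) encodes glypican-1, a heparan sulfate proteoglycan held on the outer cell membrane by a lipid anchor. It was 335, 273 and 283 cpm at D1 and 187, 180.1 and 210.1 cpm at D1+ TGF-β. At D20 it was 287, 316 and 318 cpm and at D20+ TGF-β 127, 135 and 157 cpm. Every treated flask was below every untreated flask of either day. Its log2 fold change was -0.63 ± 0.10 at D1 (adjusted p = 5.20e-04) and -1.14 ± 0.10 at D20 (adjusted p = 1.72e-06), mean ratios of 0.648 and 0.455. The difference of the responses was -0.51 ± 0.14 and did not pass the threshold (adjusted p = 0.0212), but did without D1 replicate 1 (-0.60, adjusted p = 0.00723) and without D20+ TGF-β replicate 3 (-0.60, adjusted p = 0.00600). *GPC1-AS1* overlaps this locus on the opposite strand.

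*VCAN*, *BGN* and *GPC1* were the genes called in the same direction on both days among the 8 tested, and the 250 bases before the annotated start of each are shown to let a reader see the sequence in front of genes that rose (*VCAN*, *BGN*) and of the gene that fell (*GPC1*). The sequences are those of RefSeq on GRCh38.p14, a later build than the coordinates above, on the plus strand at chr5:83471494-83471743, chrX:153494730-153494979 and chr2:240435413-240435662, written 5′ to 3′ with the last base next to the start. Capitals mark matches to the SP1 motif GGGCGG or its reverse complement, and neighbouring matches overlap in *GPC1*.
VCAN: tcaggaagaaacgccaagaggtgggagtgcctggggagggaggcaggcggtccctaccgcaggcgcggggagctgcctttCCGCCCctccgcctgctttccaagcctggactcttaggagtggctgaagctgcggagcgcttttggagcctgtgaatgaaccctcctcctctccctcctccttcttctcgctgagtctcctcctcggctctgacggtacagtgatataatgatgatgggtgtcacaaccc
BGN: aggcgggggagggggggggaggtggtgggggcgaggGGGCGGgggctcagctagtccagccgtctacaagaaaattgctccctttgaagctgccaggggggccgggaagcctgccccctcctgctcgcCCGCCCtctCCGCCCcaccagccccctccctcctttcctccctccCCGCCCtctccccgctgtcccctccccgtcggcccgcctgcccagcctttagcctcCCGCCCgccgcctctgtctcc
GPC1: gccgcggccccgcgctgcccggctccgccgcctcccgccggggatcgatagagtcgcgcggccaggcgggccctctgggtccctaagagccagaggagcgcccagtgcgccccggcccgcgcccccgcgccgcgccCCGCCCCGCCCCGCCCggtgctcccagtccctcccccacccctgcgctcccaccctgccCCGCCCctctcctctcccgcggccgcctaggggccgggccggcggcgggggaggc
On both strands the SP1 motif matched 1 time in *VCAN*, 5 times in *BGN* and 4 times in *GPC1*, and 42.6% of the 35114 promoters of the table held at least 1 match in the same window. The AP-1 motif TGANTCA (in 6.57% of promoters), the SMAD motif CAGAC (38.0%) and the TATA box TATAAA (10.7%) had 0 matches in the 3 windows. The share of G and C was 60.8% in *VCAN*, 74.0% in *BGN* and 84.0% in *GPC1*, against a median of 58.0% over all promoters. These are descriptions of letters and say nothing of binding.

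**Figure D2:**
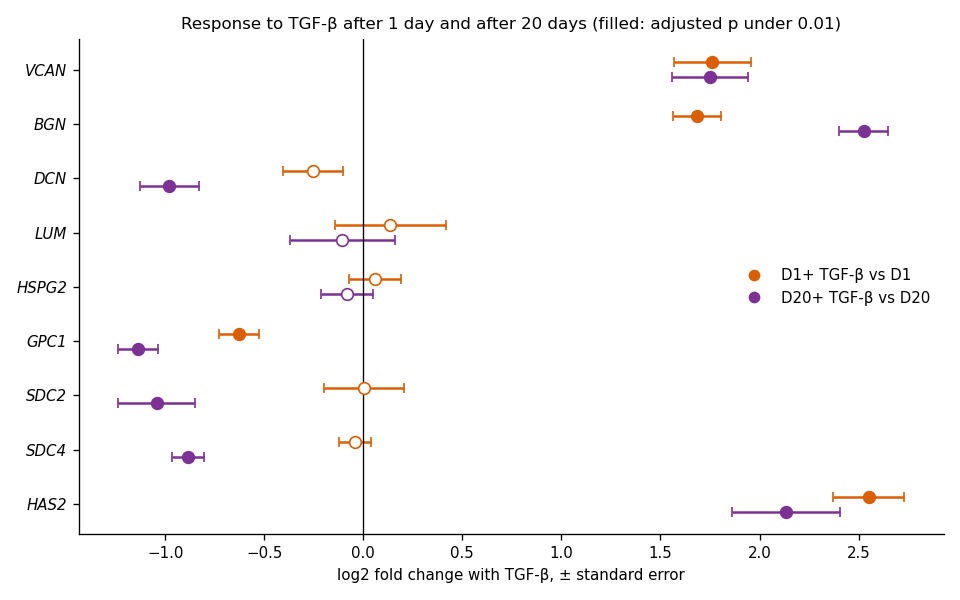
Log2 fold change with TGF-β (x axis, ± standard error, n = 3 flasks per group) for 9 genes in D1+ TGF-β vs D1 and D20+ TGF-β vs D20, with filled points called at an adjusted p under 0.01. *VCAN* lies at 1.76 and 1.75, where the value at D1 ranged from 1.58 to 2.12 over the alternatives. *BGN* moves from 1.68 to 2.53, and *SDC2* and *SDC4* move from about 0 to -1.04 and -0.89.

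*SDC4* (gene ID 6385, chr20:43953928-43977064, minus strand, GRCh37) encodes syndecan-4, a transmembrane heparan sulfate proteoglycan of focal adhesions. It was 165, 152 and 152 cpm at D1 and 148, 152 and 157 cpm at D1+ TGF-β, and these groups overlapped. At D20 it was 219, 253 and 259 cpm and at D20+ TGF-β 122, 143 and 131 cpm, without overlap. With TGF-β the log2 fold change was -0.04 ± 0.08 at D1 (adjusted p = 0.760, 95% interval -0.21 to 0.13) and -0.89 ± 0.08 at D20 (adjusted p = 2.20e-06, mean ratio 0.542). The response at D20 was lower than that at D1 by -0.85 ± 0.11 on the log2 scale (adjusted p = 2.51e-04), a call that held under all 22 alternatives.

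*SDC2* (gene ID 6383, chr8:97506041-97624018, plus strand, GRCh37) encodes syndecan-2, the syndecan known as typical of mesenchymal cells. It was 30.3, 52.6 and 27.6 cpm at D1, where replicate 2 stood above the other flasks, and 38.3, 37.6 and 35.8 cpm at D1+ TGF-β. At D20 it was 60.0, 73.8 and 76.8 cpm and at D20+ TGF-β 34.9, 39.2 and 28.4 cpm, without overlap. Its log2 fold change was 0.00 ± 0.20 at D1 (adjusted p = 0.992, 95% interval -0.43 to 0.43) and -1.04 ± 0.20 at D20 (adjusted p = 8.34e-04, mean ratio 0.487). With both libraries that stand apart left out, the value at D1 was 0.37 and was called (adjusted p = 0.00881). The difference of the responses was -1.05 ± 0.28 (adjusted p = 0.0174), and it was called without D1 replicate 2 (-1.39, adjusted p = 6.46e-05) and with the replicate number as a block (-1.08, adjusted p = 0.00870).

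Of the 8 genes tested, 2 were thus called for the difference of the responses, *BGN* higher and *SDC4* lower, against a background of 10.4% (4.51% higher and 5.87% lower, 428 and 557 genes). Without a composition factor these were 767 and 379 genes, since the median difference over all genes tested was then 0.13 in place of 0.02 on the log2 scale, and 2 of the 8 were called as well. The number of members called was 5 with both libraries that stand apart left out. *ACTA2*, for comparison, had a difference of -1.94 ± 0.24 (adjusted p = 1.23e-04), with log2 fold changes of 2.07 at D1 and 0.13 at D20, the latter not called (adjusted p = 0.554).

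*HAS2* (gene ID 3037, chr8:122624356-122653680, minus strand, GRCh37) encodes hyaluronan synthase 2, known as the main synthase of fibroblasts. It was 3.63, 3.72 and 5.36 cpm at D1 and 25.2, 28.8 and 20.5 cpm at D1+ TGF-β, from 43, 57 and 64 counts and from 217, 516 and 176 counts. At D20 it was 0.952, 0.968 and 0.841 cpm, from 10, 13 and 14 counts, and at D20+ TGF-β it was 3.08, 4.03 and 5.17 cpm, from 55, 40 and 55 counts. Treated and untreated flasks did not overlap on either day, and the treated flasks of day 20 lay in the range of the untreated flasks of day 1 or just below it. In a fit without the gene filter the log2 fold changes were 2.55 ± 0.18 at D1 (adjusted p = 5.93e-11) and 2.13 ± 0.27 at D20 (adjusted p = 7.65e-07), mean ratios of 5.86 and 4.45. Of 20434 genes with a count, 8.30% and 17.1% were called in these comparisons. The difference of the responses was -0.42 ± 0.36 and was not called (adjusted p = 0.565, where 6.43% of genes were). Of the other synthases, *HAS1* had 1 count in all 12 libraries, and *HAS3* had 0.921 to 2.66 cpm. The levels of *HAS3* and *HAS2* were not compared per length. *HAS2-AS1*, on the opposite strand of *HAS2*, had 0.101 to 1.23 cpm.

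To detect changes with time in culture without TGF-β, D20 was compared with D1. The small leucine-rich genes *DCN* and *LUM* and the syndecan genes *SDC2* and *SDC4* were higher at D20, and *BGN* and *HAS2* were lower. Of the 8 genes tested 5 were called, 4 higher and 1 lower, against 36.4% of all genes (18.9% higher and 17.6% lower, 1789 and 1668 genes, or 1389 and 2112 genes without a composition factor). *LUM* rose by 2.44 ± 0.28 on the log2 scale (adjusted p = 1.18e-05), a mean ratio of 5.39, and *DCN* by 1.86 ± 0.15 (adjusted p = 6.46e-07), a mean ratio of 3.61, with every D20 flask above every D1 flask for both. *SDC2* rose by 0.92 ± 0.19 (adjusted p = 0.00138) and *SDC4* by 0.64 ± 0.08 (adjusted p = 2.22e-05), again without overlap. *BGN* fell by 0.43 (SE 0.12, adjusted p = 0.00985), a call close to the threshold that was lost without any 1 of D1 replicates 1 and 3, the 3 D1+ TGF-β replicates, the 3 D20 replicates and D20+ TGF-β replicate 1, with adjusted p up to 0.0489. For *HAS2* the log2 fold change was -2.27 ± 0.27 (adjusted p = 1.63e-07), where 22.0% of genes were called in the fit without the filter.

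*VCAN*, *GPC1* and *HSPG2* did not pass in D20 vs D1, with log2 fold changes of 0.30 ± 0.19 (adjusted p = 0.210), 0.05 ± 0.10 (adjusted p = 0.689) and 0.28 ± 0.13 (adjusted p = 0.0888). For *VCAN* this rested on D1 replicate 2, without which the log2 fold change was 0.63 (adjusted p = 2.53e-04). Without D1 replicate 1 that of *HSPG2* was 0.48 (adjusted p = 0.00153). All 6 genes of dividing cells fell in this comparison, and their part in the changes was not tested.

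To detect changes of long over short treatment, D20+ TGF-β was compared with D1+ TGF-β. *LUM*, *DCN* and *BGN* were higher and *GPC1* was lower at D20+ TGF-β, and *HAS2* was lower as well. Of the 8 genes 4 were called, 3 higher and 1 lower, against 34.8% of all genes tested (17.2% higher and 17.7% lower). *LUM* rose by 2.20 ± 0.28 (adjusted p = 4.02e-05) and *DCN* by 1.13 ± 0.15 (adjusted p = 5.74e-05), mean ratios of 4.56 and 2.19, in each case with all treated flasks of day 20 above those of day 1. *BGN* rose by 0.41 ± 0.11 (adjusted p = 0.00828), and this call was lost without D1 replicate 3, any of the 3 D1+ TGF-β replicates, D20 replicates 1 and 2, or D20+ TGF-β replicates 1 and 2, with adjusted p up to 0.0436. *GPC1* had a log2 fold change of -0.46 ± 0.10 (adjusted p = 0.00214), not called without D1+ TGF-β replicate 3 (adjusted p = 0.0130), D20+ TGF-β replicate 1 (adjusted p = 0.0147) or D20+ TGF-β replicate 2 (adjusted p = 0.0109).

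The log2 fold change of *HAS2* between the treated groups was -2.69 ± 0.18 (adjusted p = 4.46e-11), where 21.2% of genes were called in the fit without the filter. *VCAN*, *SDC2*, *SDC4* and *HSPG2* were not called between the treated groups, with log2 fold changes of 0.28 ± 0.19 (95% interval -0.12 to 0.69), -0.12 ± 0.20 (-0.56 to 0.31), -0.20 ± 0.08 (-0.38 to -0.03) and 0.14 ± 0.13 (-0.14 to 0.42). The flasks of the treated groups did not overlap for *VCAN* and *SDC4*, and with both libraries that stand apart left out *VCAN* was called (0.34, adjusted p = 0.00243). D20 and D20+ TGF-β each enter 2 of these comparisons, as do D1 and D1+ TGF-β, so the 4 comparisons are not independent of each other.

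Levels of different genes were compared per length, as TMM cpm over the kilobases of the canonical transcript (GENCODE, GRCh37), which ranged from 2.353 kb for *BGN* to 14.341 kb for *HSPG2*. At D1 the order began with *GPC1* (79.8 ± 8.96 cpm per kb), *SDC4* (59.9 ± 2.92) and *DCN* (39.7 ± 9.82), each clear of the next, followed by *LUM*, *BGN*, *HSPG2*, *VCAN* and *SDC2* between 22.1 and 11.1 cpm per kb, whose flasks overlapped from each gene to the next. At D1+ TGF-β, *BGN* was first at 67.8 ± 2.35 cpm per kb, followed by *SDC4* (58.3 ± 1.74) and *VCAN* (58.0 ± 0.502), which overlapped, and by *GPC1* (51.7 ± 4.24). At D20, *DCN* (144 ± 17.4) and *LUM* (119 ± 15.7) stood first and overlapped, and *BGN* (15.6 ± 1.41) was eighth. At D20+ TGF-β, *LUM* (110.5 ± 38.7), *BGN* (mean 90.0), *DCN* (72.9 ± 5.68) and *VCAN* (70.5 ± 9.68) were first, overlapping from each to the next, while *GPC1* (37.6 ± 4.20) was sixth. With the union of exons as length, *DCN* (38.6) was there below *VCAN* (59.3) and *SDC4* (50.5). With the union of all annotated exons as length, *SDC4* (59.9) was above *GPC1* (45.5) and *LUM* (22.1) above *DCN* (21.0) at D1, and the order at D20 began with *LUM* (119), *SDC4* (93.2) and *DCN* (76.0 cpm per kb). *HAS2* was ninth in all 4 conditions, between 0.217 and 5.86 cpm per kb, and *ACAN* was last.

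Summed over *VCAN*, *BGN*, *DCN* and *ACAN*, whose core proteins carry chondroitin or dermatan sulfate, the level went from 77.9 ± 6.43 to 159 ± 0.986 cpm per kb with TGF-β at day 1 and from 180.1 ± 20.5 to 233 ± 25.4 cpm per kb at day 20. Summed over the heparan sulfate genes *HSPG2*, *GPC1*, *SDC2* and *SDC4*, it went from 168 ± 14.4 to 139.6 ± 6.36 cpm per kb and from 218 ± 16.6 to 119 ± 7.93 cpm per kb. The treated flasks were thus above the untreated flasks of the same day in the first sum and below them in the second. The genes within a sum did not move alike. At day 1, *GPC1* went from 79.8 to 51.7 cpm per kb with TGF-β. *SDC4* (59.9 and 58.3), *HSPG2* (17.6 and 18.3) and *SDC2* (11.1 and 11.3) differed little. At day 20, *DCN* went from 144 to 72.9 cpm per kb, while *BGN* (15.6 to 90.0) and *VCAN* (21.0 to 70.5) rose. The sums by class were not among the planned results. The ratio of the first to the second sum was 0.464 ± 0.0391 without and 1.14 ± 0.0539 with TGF-β at day 1, and 0.824 ± 0.0397 without and 1.97 ± 0.195 with it at day 20, with no overlap between any of the 4 conditions. With *LUM*, a keratan sulfate proteoglycan, added to the first sum, an alternative chosen after seeing the data, the ratio was 1.31 ± 0.0584 at D1+ TGF-β and 1.37 ± 0.0573 at D20, and the flasks of these conditions overlapped. These sums depend on the transcript length used and were not tested, since an exact permutation test of 3 against 3 flasks cannot give a p below 0.1.

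**Figure D3:**
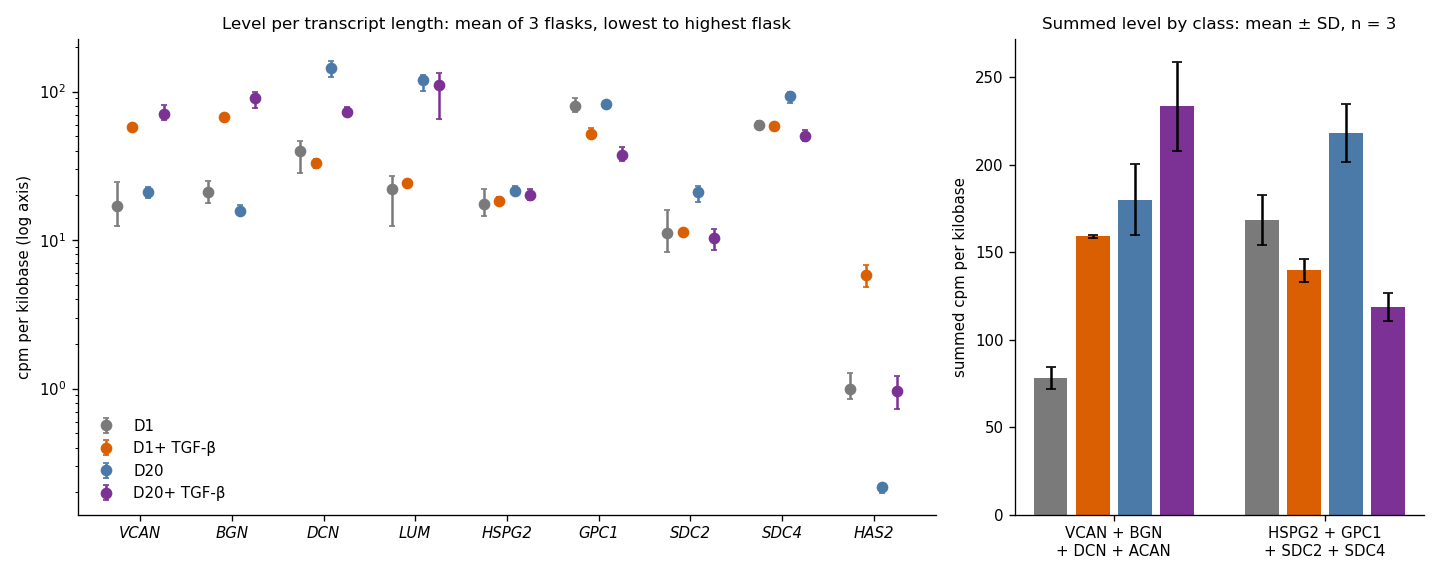
Left, TMM cpm per kilobase of canonical transcript on a log axis for 9 genes, as the mean of 3 flasks with the lowest and highest flask. Right, the same levels summed over *VCAN*, *BGN*, *DCN* and *ACAN* and over the heparan sulfate genes, as mean ± SD of 3 flasks, with the first sum going from 77.9 to 159 and from 180.1 to 233 with TGF-β and the second going from 168 to 139.6 and from 218 to 119.

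Ratios of counts within a library do not depend on the scaling between libraries. The log2 ratio of *BGN* to *DCN* counts was -2.36, -2.22 and -2.72 in the D1 flasks and -0.58, -0.62 and -0.35 in the D1+ TGF-β flasks. It was -4.64, -4.82 and -4.76 in the D20 flasks and -1.17, -1.21 and -1.35 in the D20+ TGF-β flasks, so the 4 conditions did not overlap. The mean went from -2.43 ± 0.26 to -0.51 ± 0.15 with TGF-β at day 1 and from -4.74 ± 0.09 to -1.24 ± 0.09 at day 20. For *LUM* to *DCN* the mean went from -2.26 ± 0.26 to -1.82 ± 0.14 and from -1.63 ± 0.10 to -0.83 ± 0.51, where D20+ TGF-β replicate 3 (-1.41) lay nearer to the D20 flasks than the other treated flasks (-0.47 and -0.60). For *SDC4* to *SDC2* the means were 2.15 ± 0.53 and 2.03 ± 0.09 at day 1 and 1.80 ± 0.06 and 1.96 ± 0.22 at day 20, with overlapping flasks. For *HAS2* to *VCAN* they were -5.60 ± 0.75 and -4.86 ± 0.24 at day 1 and -8.13 ± 0.22 and -7.75 ± 0.43 at day 20, so that every flask of day 20 was below every flask of day 1.

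**Figure D4:**
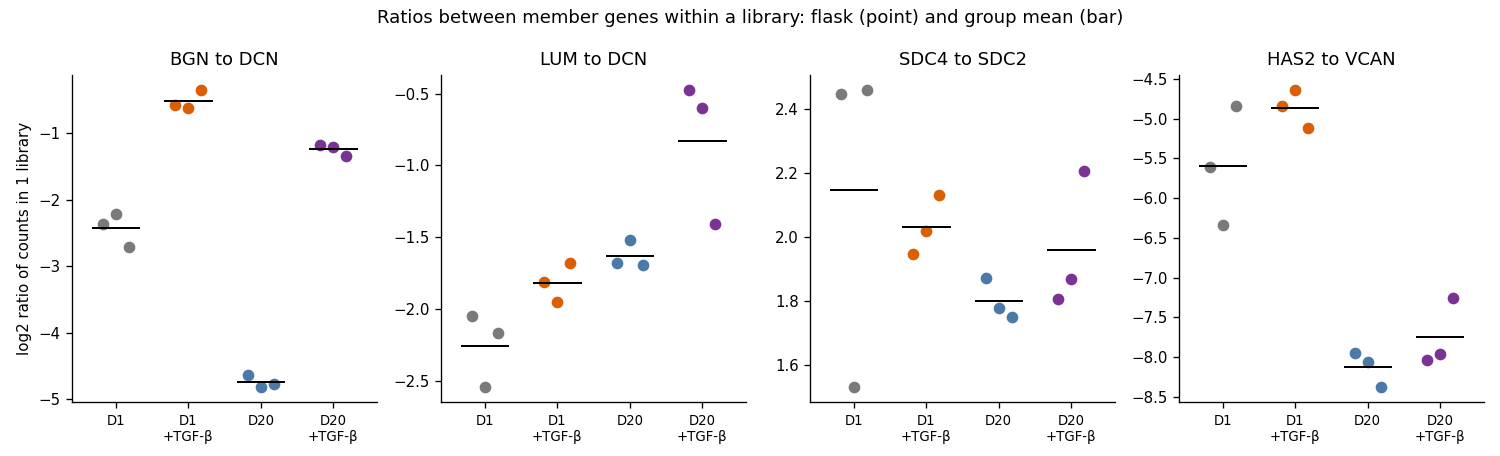
Log2 ratio of the counts of pairs of genes within a library, by condition, with a point for each flask and a bar for the mean of 3. The axes differ and do not start at 0; *BGN* to *DCN* separates all 4 conditions, and *SDC4* to *SDC2* separates no treated group from its control.

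Around the 10 genes, 8 lists of other proteoglycans, of the enzymes that build and sulfate their chains, of hyaluronan genes and of proteases were counted, 107 genes of which 58 were tested. Of these 58, 17 were called in D1+ TGF-β vs D1 (11 higher and 6 lower, background 13.4%) and 26 in D20+ TGF-β vs D20 (12 higher and 14 lower, background 27.5%). The median log2 fold changes of the 58 were -0.04 and -0.03, beside -0.02 and 0.01 over all genes tested. Between the treated groups 24 were called (15 higher and 9 lower, background 34.8%), in D20 vs D1 25 (18 higher and 7 lower, background 36.4%), and for the difference of responses 10 (3 higher and 7 lower, background 10.4%).

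Among the other core proteins, *SPOCK1*, which encodes testican-1, had the largest change with TGF-β, from 15.8 ± 2.45 cpm at D1 to 78.4 ± 2.83 at D1+ TGF-β (log2 fold change 2.30, adjusted p = 8.73e-09) and from 20.6 ± 0.347 at D20 to 225 ± 17.5 at D20+ TGF-β (3.45, adjusted p = 1.12e-10). *COL18A1*, which encodes a collagen with heparan sulfate chains, fell with TGF-β, with log2 fold changes of -0.56 at D1 (adjusted p = 0.00165) and -0.87 at D20 (adjusted p = 2.66e-05), the first call being lost without D1+ TGF-β replicate 1 or 2. On both days these 2 were the called genes of the 3 tested in the list of other matrix and vesicle proteoglycans (backgrounds 13.4% and 27.5%). Of the other small leucine-rich genes, 3 of 12 were tested and 0 of these 3 were called in D1+ TGF-β vs D1 by edgeR's quasi-likelihood test (background 13.4%). In D20+ TGF-β vs D20, *TSKU* rose by 0.99 (adjusted p = 2.60e-05) and *FMOD*, which encodes fibromodulin, fell by 1.13 (adjusted p = 0.00512, lost without any 1 of the 3 D20 replicates or D20+ TGF-β replicate 2). *PODN*, which encodes podocan, rose with time by 1.85 in D20 vs D1, from 9.72 ± 3.96 to 34.5 ± 5.67 cpm. Between the treated groups it rose by 2.26, from 6.55 ± 0.561 to 31.8 ± 9.39 cpm. Its means at day 1 are under the 10 cpm of the filter, which it passed mainly through the flasks of day 20. Its comparisons between days are thus not independent of the filter.

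Of 7 other cell surface proteoglycans tested, 3 were called in D1+ TGF-β vs D1 (1 higher and 2 lower, background 13.4%). In D20+ TGF-β vs D20, 5 were called (2 higher and 3 lower, background 27.5%). *SDC3*, a further syndecan gene, fell on both days, with log2 fold changes of -0.61 at D1 (adjusted p = 0.00161, lost without D1+ TGF-β replicate 2) and -1.04 at D20 (adjusted p = 1.00e-05). *TGFBR3*, which encodes betaglycan, the co-receptor of TGF-β, fell by 0.77 at D1 (adjusted p = 3.80e-04) and by 0.56 at D20 (adjusted p = 0.00131). The difference of these responses was not called (0.21, adjusted p = 0.381). *NRP1*, which encodes neuropilin-1, rose by 1.31 at D20 (adjusted p = 1.49e-04) and fell by 1.42 in D20 vs D1, and *SDC1*, a further syndecan gene, was lower in D20+ TGF-β than in D1+ TGF-β by -0.77 (adjusted p = 1.96e-04). *SDC1* rose with TGF-β on both days, from 78.5 ± 13.9 to 114 ± 2.53 cpm at day 1 (log2 fold change 0.54, adjusted p = 0.00578) and from 41.0 ± 1.73 to 66.6 ± 10.4 cpm at day 20 (0.70, adjusted p = 6.24e-04). The first of these calls was lost without any 1 of D1 replicate 3, the 3 D1+ TGF-β replicates and D20 replicates 2 and 3, with adjusted p up to 0.0290.

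All 14 genes of sugar supply and of the tetrasaccharide that links chains to core proteins were tested. In D1+ TGF-β vs D1, 5 of these 14 were called, all 5 higher (background 13.4%). In D20+ TGF-β vs D20, 3 were higher and 3 lower (background 27.5%). *XYLT1*, which encodes a xylosyltransferase that starts the chain on the core protein, went from 96.3 ± 13.7 to 408 ± 20.7 cpm with TGF-β at day 1 and from 57.8 ± 2.83 to 94.4 ± 15.7 cpm at day 20. Its log2 fold change with TGF-β was 2.08 at D1 (adjusted p = 8.85e-08) and 0.71 at D20 (adjusted p = 3.62e-04). *GFPT2*, which supplies hexosamine, rose by 0.94 and 0.84 on the log2 scale at D1 and D20, and *PAPSS2*, which makes the sulfate donor, fell by 0.82 at D20 (adjusted p = 4.48e-07).

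Of the enzymes of chondroitin and dermatan sulfate, 12 were tested. Of these 12, 1 was called in D1+ TGF-β vs D1 (background 13.4%) and 3 in D20+ TGF-β vs D20 (background 27.5%). *DSE*, which encodes the epimerase that turns chondroitin into dermatan sulfate, rose by 0.69 at D1 (adjusted p = 1.90e-04), and at D20 *UST*, a sulfotransferase gene, rose by 0.55 (adjusted p = 2.11e-04) and *CHST15* fell by 0.68 (adjusted p = 0.00319, lost without D20 replicate 1 or 3 or D20+ TGF-β replicate 1 or 3). With time, *CSGALNACT1* rose by 1.77 between the treated groups, from 6.25 ± 1.05 to 20.3 ± 9.58 cpm, and *CSGALNACT2* by 0.75 between the untreated groups. The first call was lost without D1+ TGF-β replicate 2 or D20+ TGF-β replicate 1. The second was lost without D1 replicate 1 or 3 or any 1 of the 3 D20 replicates. The D1+ TGF-β mean of *CSGALNACT1* is under the 10 cpm of the filter, so its comparison between the treated groups is not independent of the filter. Of the 10 enzymes of heparan sulfate tested, 3 and 4 were called in the 2 TGF-β comparisons (backgrounds 13.4% and 27.5%). *HS3ST3A1*, a sulfotransferase gene, rose by 0.68 at D1 (adjusted p = 0.00358, lost without D1 replicate 1 or 3 or D1+ TGF-β replicate 2 or 3) and by 1.41 at D20 (adjusted p = 1.66e-05), *HS6ST1* fell by 1.53 at D1 (adjusted p = 4.19e-04), and *EXT1*, which encodes a polymerase of the chain, fell by 0.78 at D20 (adjusted p = 1.45e-04).

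**Figure D5:**
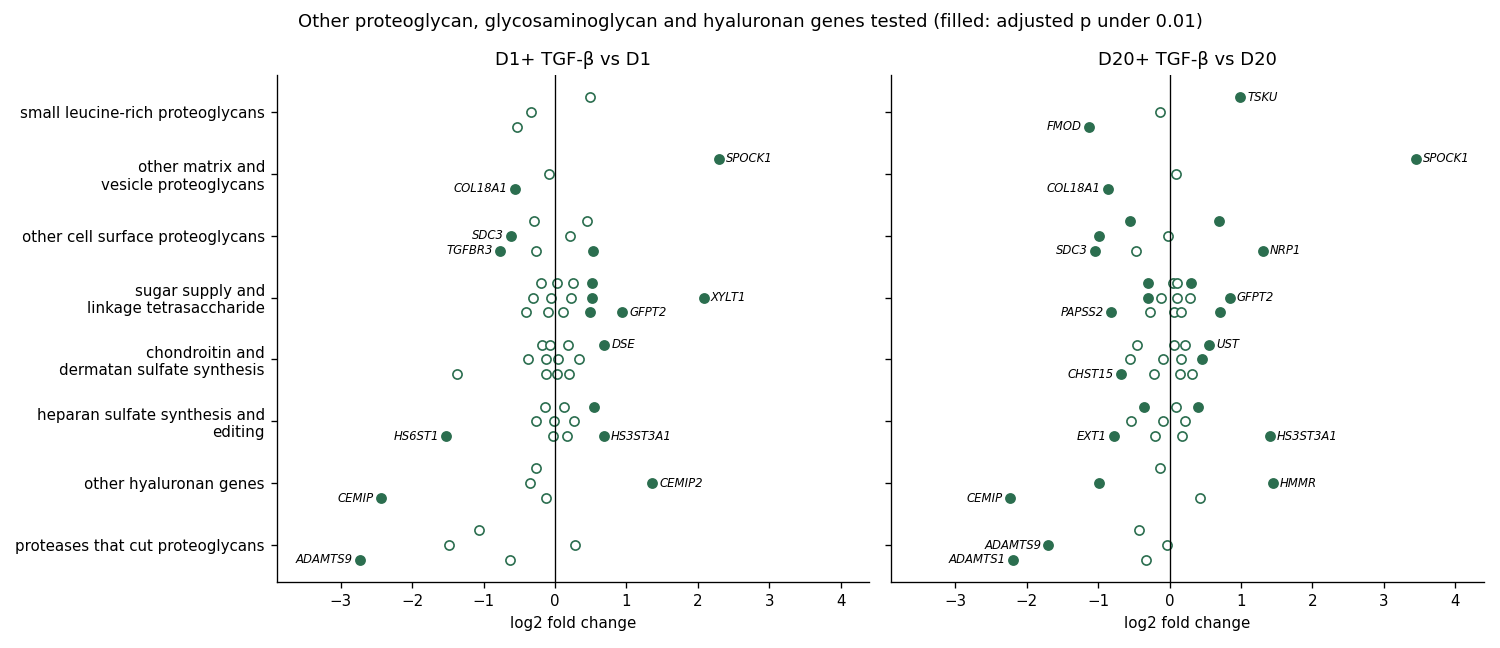
Log2 fold change of the list genes tested in D1+ TGF-β vs D1 (left) and D20+ TGF-β vs D20 (right), by list, with filled points called at an adjusted p under 0.01. The genes named by rule carry their symbols; *SPOCK1* lies farthest to the right in both panels, at 2.30 and 3.45.

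Of the other hyaluronan genes, 5 of 15 were tested. Of these 5, 2 were called in D1+ TGF-β vs D1 (background 13.4%) and 3 in D20+ TGF-β vs D20 (background 27.5%). *CEMIP*, which encodes a protein that breaks down hyaluronan, went from 80.8 ± 79.2 to 15.2 ± 2.17 cpm with TGF-β at day 1 (log2 fold change -2.44, adjusted p = 0.00518), and from 353 ± 92.4 to 75.1 ± 10.5 cpm at day 20 (-2.24, adjusted p = 0.00228). The log2 fold change at day 1 was -1.23 without D1 replicate 2 (adjusted p = 0.00401). The first call was lost without any 1 of the 3 D1+ TGF-β replicates and the second without D20 replicate 3 or D20+ TGF-β replicate 1. *CEMIP2*, its relative at the cell surface (listed in the deposited table as *TMEM2*), rose by 1.36 at D1 (adjusted p = 7.95e-06) and had a log2 fold change of 0.43 at D20 that was not called (adjusted p = 0.0165) but was without D1 replicate 2 (0.45, adjusted p = 1.77e-04). *HMMR*, which encodes a hyaluronan receptor that is also a protein of the mitotic spindle, rose by 1.45 at D20 (adjusted p = 3.02e-05) and fell by 2.70 in D20 vs D1, as the genes of dividing cells did. Its D20 mean (6.83 cpm, against 43.7 cpm at D1) is under the 10 cpm of the filter. Flasks of day 1 alone are enough to meet this filter, so its comparison between days is not independent of it. *CD44*, the main hyaluronan receptor, is named here after its values were seen. Its levels were 2235 ± 208 and 1853 ± 102 cpm without and with TGF-β at day 1, a difference that was not called (-0.27, adjusted p = 0.0277), and 3696 ± 112 and 1869.6 ± 71.5 cpm at day 20, where the log2 fold change was -0.98 (adjusted p = 1.03e-06).

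Of 9 proteases known to cut proteoglycans, 5 were tested. Of these 5, 1 was called in D1+ TGF-β vs D1 (background 13.4%) and 2 in D20+ TGF-β vs D20 (background 27.5%), all lower. *ADAMTS9* had log2 fold changes of -2.73 at D1 (adjusted p = 0.00255, lost without D1+ TGF-β replicate 1 or 2) and -1.70 at D20 (adjusted p = 7.79e-04), and *ADAMTS1* fell by 2.20 at D20 (adjusted p = 2.58e-06), from 582 ± 75.8 to 127 ± 32.6 cpm. *ADAMTS5*, an aggrecanase gene, rose by 3.03 in D20 vs D1 (adjusted p = 1.01e-05), from 8.45 ± 4.28 to 70.4 ± 3.42 cpm. Between the treated groups *ADAMTS9* rose by 3.71 (adjusted p = 6.05e-05), from 1.27 ± 0.430 to 15.9 ± 8.83 cpm. The means of *ADAMTS9* and *ADAMTS5* at D1 (8.11 and 8.45 cpm) are under the 10 cpm of the filter. Flasks of day 20 alone are enough to meet this filter, so comparisons of these genes between days are not independent of it.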

How the data were processed

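Paired-end RNA sequencing of 12 WI-38 libraries, made with a directional kit and read on 4 lanes each, was used. The authors deposited raw counts per gene and lane, without normalization, after trimming with Trimmomatic and mapping to hg19 with Rsubread. They also deposited log2 cpm from voom for 9412 genes, which served for gene names and 1 alternative. The counting program, annotation and use of strand are not given in the sources used here.

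Lanes were summed per library. Genes that reached 10 cpm in 6 or more of the 12 libraries were tested in R 4.3.3 with edgeR 4.0.16 (TMM factors, quasi-likelihood fit, 1 mean per condition over 12 libraries, adjusted p under 0.01). Errors are SDs or standard errors between flasks and include counting error. The code was tested on simulated data. Alternatives were DESeq2 1.42.0, limma-voom (limma 3.58.1) on libraries or lanes, limma on the deposited log2 values, other scalings, other filters, fewer libraries, each library left out and a replicate block. Leaving out both libraries that stand apart was added after seeing the data. For levels per kilobase the plan named exonic length. The canonical transcript was made the main length later, because the union of exons was inflated for *DCN* (12.941 kb against 6.85 kb). The exon union is given as an alternative.

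The members and lists were chosen with earlier results of these data known. List genes were named by rule: of each list, up to 2 genes per TGF-β comparison and 1 per day comparison, those with the largest called change without overlap of flasks, plus *ACTA2* and the markers.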

Additional observations from a re-analysis of the deposited data

Results flagged for a closer look

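The results below were marked because the response to TGF-β at D20 differed from that at D1 in edgeR's quasi-likelihood test of the difference itself (adjusted p under 0.01). All values are log2 differences, D20 minus D1. Among the 10 genes the difference was 0.84 for *BGN* and -0.85 for *SDC4*. The call for *BGN* was lost without D1+ TGF-β replicate 1 or 2 or D20 replicate 1 or 2 (adjusted p from 0.0107 to 0.0119). That for *SDC4* held under all 22 alternatives. The other genes were a proteoglycan core (*SPOCK1*, 1.14), a xylosyltransferase (*XYLT1*, -1.38), a maker of the sulfate donor (*PAPSS2*, -1.05), a sulfotransferase (*UST*, 0.73), a heparan sulfate polymerase (*EXT1*, -0.77), a hyaluronan-degrading protein (*CEMIP2*, -0.93), hyaluronan receptors (*HMMR*, 1.57, and *CD44*, -0.71), a protease (*ADAMTS1*, -1.57) and the α-smooth muscle actin (*ACTA2*, -1.94). The call for *EXT1* was lost without any 1 of 6 libraries (D1 replicate 3, the 3 D1+ TGF-β replicates, D20 replicates 2 and 3) and with the replicate block (adjusted p = 0.0102), and that for *CEMIP2* without D1+ TGF-β replicate 2 (adjusted p = 0.0103) or D20 replicate 3 (adjusted p = 0.0106).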

How the results depend on the processing

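Of the comparisons of single genes under the alternatives, 2753 stayed on their side of the threshold, 104 lost a call, 58 gained one and 0 changed direction with a call, while 45 that were not called changed sign. The cause was not tested for any change below. With both libraries that stand apart left out, D1+ TGF-β vs D1 had 5 members and 2642 genes called, and the difference had 5 members and 2264 genes. With the 48 lanes as samples, which treats lanes of a library as independent, 3934, 5205, 5762 (treated groups), 5934 (untreated groups) and 3712 (difference) of all genes and 5 members for the difference were called. DESeq2 called 5 members and 1362 genes for the difference. With only the 6 libraries of the comparison, 802 genes were called in D1+ TGF-β vs D1. In edgeR's test on those libraries the calls were lost for *COL18A1* at D1 (adjusted p = 0.0134) and *FMOD* at D20 (adjusted p = 0.0188). In D20 vs D1 they were lost there for *CSGALNACT2* (adjusted p = 0.0145) and *BGN* (adjusted p = 0.0160). Leaving out 1 library gave 619 to 1875 genes there and 549 to 1731 for the difference, 2 to 4 members between the treated groups and 1 to 4 members for the difference, and the log2 *SDC4* to *SDC2* difference at day 1 ranged from -0.42 to 0.044, reversing without D1 replicate 1 (0.037) or replicate 3 (0.044). Without the gene filter, where more genes are tested, 8.30% and 17.1% of 20434 genes were called in the TGF-β comparisons at D1 and D20. Of the list of 12 other matrix proteoglycans 4 and 6 were then called, and of the list of 9 proteases 3 and 5. At D1, 4 of the list of 16 enzymes of chondroitin and 5 of the list of 21 of heparan sulfate were called. At D20, 6 of the list of 15 hyaluronan genes were called. With *LUM* added to the first summed level, the ratio of the sums was 0.595 without and 1.31 with TGF-β at day 1, 1.37 without and 2.91 with it at day 20, and with the exon union as length it was 0.624 at D20. With that length, 4 of the 10 genes at D1 and 5 at D20 kept their rank. Same-numbered flasks share only a number (correlations of deviations -0.22 to 0.32). With the replicate block, 3, 6, 3, 4 and 3 members were called in the order D1, D20, treated groups, untreated groups and difference, and 1072, 2379, 3086, 3229 and 831 genes. *BGN* was not called with the block between the treated groups (0.41, adjusted p = 0.0140) or the untreated groups (-0.42, adjusted p = 0.0171), and *SDC2* was called for the difference (-1.08, adjusted p = 0.00870). Depth limits *ACAN* and *HAS2* at D20.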
